A study of Homo sapiens with 9 samples.

Results

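The D-type cyclins, the kinases and inhibitors that act with them, and the retinoblastoma gene RB1 set the G1 gate of the cell cycle, and their transcript levels were examined in HCT116 cells after knockdown of ORM1. The members were 10 genes of the 61806 identifiers in the count table: CCND1, CCND2, CCND3, CDK4, CDK6, CDK2, CDKN1A, CDKN1B, CDKN1C and RB1. They were chosen by name, because CCND1 and CDKN1A were already known to be lower, and replication genes higher, under the ORM1 siRNAs than in control in these same libraries. Differences of the members from control are therefore given as a description with no test, and the comparison of both siRNAs with each other, which holds no control library, is tested.

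HCT116 is an established human colorectal carcinoma cell line, used here as a single line. The cells were transfected, with the same lipid reagent, with ORM1 siRNA 1, ORM1 siRNA 2 or a control siRNA, and each of the 3 groups held 3 RNA-seq libraries. All 9 libraries carry the batch value Day 3, and nothing in the labels says that replicates were separate cultures, so p-values measure only the spread between libraries, which may be technical. ORM1 encodes an acute-phase plasma glycoprotein, and the question was how expression in this line differs when it is depleted.

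Libraries held 60698684 to 71431723 counts, and mitochondrially encoded genes took 8.02% to 8.62% of them. ORM1 had 0, 0 and 5 counts under siRNA 1, 8, 0 and 12 counts under siRNA 2, and 63, 56 and 59 counts in control, so every knockdown library lay below every control library. Its mean in control was only 0.915 CPM, where CPM is TMM-scaled counts per 1000000 counts. ORM2, read in the same check, averaged 0.141 CPM under siRNA 1, 0.106 CPM under siRNA 2 and 0.733 CPM in control. Its knockdown libraries also lay below control, but it did not pass edgeR's test (adjusted p = 0.0939 and 0.0657), whereas ORM1 did (0.00287 and 0.019). The value 8 occurs 5001 times in the table, against 3733 for 7 and 2782 for 9, so such low counts may rest on fewer fragments. Whether the siRNAs act on ORM1 alone was not tested, and sequence shared by ORM1 and ORM2 was not examined. The epithelial markers EPCAM, CDH1, KRT8 and KRT18 summed to 2427 to 2551 CPM under siRNA 1, 2541 to 2679 CPM under siRNA 2 and 2914 to 3112 CPM in control. EPCAM and CDH1 rose and KRT8 and KRT18 fell under both siRNAs against control in edgeR's test. The markers of blood, endothelial and stromal cells (PTPRC, PECAM1, COL1A2 and LUM) summed to 0.0326 to 0.129 CPM under siRNA 1, 0.156 to 0.197 CPM under siRNA 2 and 0.227 to 0.401 CPM in control. PTPRC, COL1A2 and LUM were at 0 in every siRNA 1 library. The part of these markers in the results below was not tested. In bulk RNA of this kind, fewer cells in a state and less RNA per cell cannot be told apart.

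D-type cyclins accumulate when growth factors act on a cell, bind CDK4 or CDK6 and direct these kinases to the RB1 protein. Phosphorylated RB1 lets go of E2F transcription factors, which drive the genes of DNA replication and of cyclin E, the partner of CDK2. The CIP/KIP proteins p21 (CDKN1A), p27 (CDKN1B) and p57 (CDKN1C) bind cyclin-kinase complexes and block CDK2, and p21 and p27 also help cyclin D to assemble with CDK4 and CDK6. In the colonic epithelium, CCND1 is known as a gene switched on by WNT and growth factor signalling, and p21 as a gene switched on when DNA is damaged.

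The short motifs by which these proteins meet are shared within each family, and the coding sequences that spell them are shown because the results turn on which member of a family carries the transcript. The first set is the 5′ start of the coding sequence of CCND1 and CCND3, the D-type cyclins expressed in these cells (GENCODE 29, GRCh38), with capitals on the codons of LxCxE, the motif that docks on RB1.
CCND1: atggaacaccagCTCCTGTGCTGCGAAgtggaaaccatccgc
CCND3: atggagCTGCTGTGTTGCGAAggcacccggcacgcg
The motif occupied coding bases 13 to 27 of CCND1 and 7 to 21 of CCND3, and the aligned coding sequences of this pair were 68.1% identical. The second set comes from the CIP/KIP inhibitors, with capitals on the codons of RxLFG, by which the inhibitors hold a cyclin.
CDKN1A: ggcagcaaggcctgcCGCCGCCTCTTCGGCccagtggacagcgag
CDKN1B: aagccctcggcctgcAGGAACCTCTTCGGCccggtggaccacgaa
CDKN1C: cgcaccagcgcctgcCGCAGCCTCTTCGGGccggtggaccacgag
These codons lay at coding bases 55 to 69 of CDKN1A, 88 to 102 of CDKN1B and 91 to 105 of CDKN1C. Identity between pairs of the inhibitors' aligned coding sequences was 65.7% to 69.3%.

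CCND1, the cyclin at the entry to the pathway, was the member whose level differed most between knockdown and control. It is ENSG00000110092, found at chromosome 11, 69641087 to 69654474 (plus strand), in GENCODE 29 on GRCh38, the source of all gene positions given here. Its level was 769.8, 779 and 785 CPM under siRNA 1, 831, 829 and 815 CPM under siRNA 2, and 1578, 1572 and 1545 CPM in control. Every knockdown library thus held about the same, much lower level than any control library, and the libraries of siRNA 1 all lay below those of siRNA 2. Relative to control the level was 49.7% under siRNA 1 and 52.7% under siRNA 2, with log2 changes of −1.01 (SE 0.02) and −0.92 (SE 0.02). Between the siRNAs the log2 difference was −0.08 (SE 0.02), and its Benjamini-Hochberg adjusted p over all genes was 0.0153 in the quasi-likelihood test of edgeR. This call was lost without siRNA 1 replicate 1, at an adjusted p of 0.0587 in edgeR, and without siRNA 1 replicate 2, at 0.0551. LTO1, a gene on the opposite strand, overlaps 10.3% of the exon bases of CCND1, and its own level was 16.6 CPM under siRNA 1, 18.0 CPM under siRNA 2 and 17.0 CPM in control.

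CCND3, which encodes the cyclin D that lymphoid cells rely on, differed from control in the same direction by a smaller amount. It lies at chromosome 6, 41934933 to 42050357 (minus strand). Its level was 41.4, 43.6 and 41.9 CPM under siRNA 1, 44.9, 46.6 and 42.7 CPM under siRNA 2, and 51.4, 51.9 and 51.4 CPM in control. All knockdown libraries lay below the control libraries, whereas the ranges of both siRNAs overlapped. The log2 change was −0.29 (SE 0.04) under siRNA 1 and −0.21 (SE 0.04) under siRNA 2, and −0.08 between the siRNAs, which did not pass edgeR's test (adjusted p = 0.252).

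CCND2 was practically absent. This cyclin (chromosome 12, 4273772 to 4305350, plus strand) had 4 counts, or 0.0589 CPM, in siRNA 1 replicate 3 and 0 counts in the other 8 libraries. Where a library is at 0, the limit set by 3 counts is 0.042 to 0.0494 CPM, for counting error alone. The value 4 occurs 11894 times in the table, the value 3 only 6787 times and the value 5 only 4317 times, so 4 counts may rest on fewer fragments. CCND2 did not pass the filter on low counts and was not tested, which left 9 members in the fit.

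**Figure D1:**
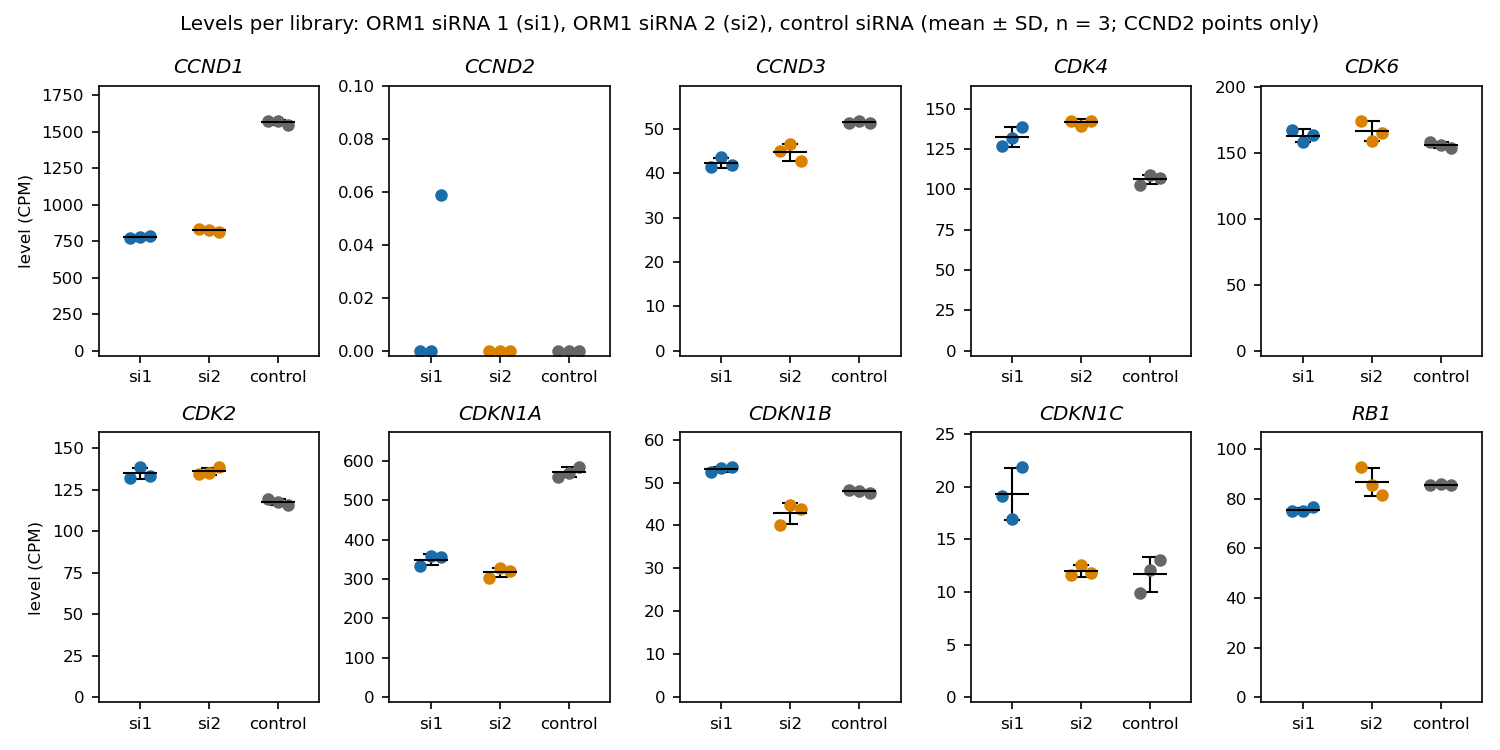
Level of each member in CPM (vertical axis, starting at or just below 0, with its own scale per gene) in the 3 libraries of ORM1 siRNA 1 (si1), ORM1 siRNA 2 (si2) and control siRNA. Points are libraries and bars give the mean ± SD. CCND1 and CDKN1A were lower in every knockdown library than in any control library, and CDK4 and CDK2 were higher. The siRNA 1 and siRNA 2 libraries did not overlap for CCND1, CDK4, CDKN1A, CDKN1B, CDKN1C and RB1.

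The kinases did not follow the cyclins. CDK4 and CDK2 were higher in each knockdown library than in any control library, and CDK6 was close to control. CDK4, a partner of the D-type cyclins (chromosome 12, 57747727 to 57756013, minus strand), had 126.5, 132 and 139 CPM under siRNA 1, 143, 139 and 143 CPM under siRNA 2, and 103, 109 and 107 CPM in control. The log2 change was 0.32 (SE 0.04) under siRNA 1 and 0.42 (SE 0.04) under siRNA 2. The difference between the siRNAs was −0.10 (SE 0.04), which did not pass edgeR's test (adjusted p = 0.102) with all libraries and passed without siRNA 1 replicate 3 (adjusted p = 0.0333). CDK4 shares 43.2% of its exon bases with TSPAN31 on the opposite strand, and whether counting used strand is not given in the sources used here. TSPAN31 itself was counted at 16.6 CPM under siRNA 1, 15.9 CPM under siRNA 2 and 17.6 CPM in control. Of the 31-base words of the CDK4 transcripts, 5.75% also occur in another gene's transcripts, the largest such share among the 9 members tested.

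CDK6, the second partner of the D-type cyclins (chromosome 7, 92604921 to 92836594, minus strand), had 167, 158 and 163 CPM under siRNA 1, 174, 159 and 165 CPM under siRNA 2, and 158, 156 and 153 CPM in control. Its log2 change was 0.06 (SE 0.04) under siRNA 1 and 0.09 (SE 0.04) under siRNA 2, and the lowest siRNA 1 library and the highest control library both stood at 158 CPM. CDK2, the partner of cyclins E and A (chromosome 12, 55966769 to 55972784, plus strand), had 132, 139 and 134 CPM under siRNA 1, 134, 135 and 139 CPM under siRNA 2, and 119.5, 118 and 116 CPM in control. The ranges of both siRNAs overlapped and lay above control, with log2 changes of 0.20 (SE 0.03) and 0.21 (SE 0.03). Neither kinase differed detectably between the siRNAs in edgeR's test (CDK6 −0.03, adjusted p = 0.664; CDK2 −0.01, SE 0.03, adjusted p = 0.837).

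The inhibitors split. CDKN1A, which encodes p21 (chromosome 6, 36676460 to 36687339, plus strand), had 334, 358 and 355 CPM under siRNA 1, 304, 327 and 320 CPM under siRNA 2, and 559.9, 569 and 584 CPM in control. Knockdown libraries lay far below control, and the libraries of siRNA 1 lay above those of siRNA 2, the reverse of the order for CCND1. The log2 change was −0.71 (SE 0.04) under siRNA 1 and −0.85 (SE 0.04) under siRNA 2. The difference between the siRNAs was 0.14 (SE 0.04), with an adjusted p of 0.0181 in edgeR. This call was lost without siRNA 1 replicate 2 (adjusted p = 0.0827), siRNA 1 replicate 3 (adjusted p = 0.0813) or siRNA 2 replicate 1 (adjusted p = 0.0762).

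CDKN1B, which encodes p27 (chromosome 12, 12715058 to 12722371, plus strand), lay on opposite sides of control under the 2 siRNAs. It had 52.5, 53.3 and 53.6 CPM under siRNA 1, 40.1, 44.7 and 43.8 CPM under siRNA 2, and 48.2, 48.1 and 47.6 CPM in control. The 3 groups did not overlap, with siRNA 1 highest, control between and siRNA 2 lowest. Relative to control the log2 change was 0.15 (SE 0.04) under siRNA 1 and −0.16 (SE 0.04) under siRNA 2. The difference between the siRNAs was 0.31 (SE 0.04), with an adjusted p of 4.71e-04 in edgeR and of at most 0.0034 under every alternative run.

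CDKN1C, which encodes p57 and is an imprinted gene (chromosome 11, 2883213 to 2885773, minus strand), stood out under siRNA 1. Its level was 19.2, 16.9 and 21.9 CPM under siRNA 1, 11.6, 12.6 and 11.8 CPM under siRNA 2, and 9.86, 12.1 and 13.03 CPM in control. The siRNA 1 libraries were all higher than the other 6, whereas the range of siRNA 2 fell inside that of control. The log2 change was 0.73 (SE 0.12) under siRNA 1 and 0.04 (SE 0.12) under siRNA 2, and the difference between them was 0.69 (SE 0.12), with an adjusted p of 0.0016 in edgeR and of at most 0.0095 under every alternative run.

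RB1, the target of the cyclin D kinases (chromosome 13, 48303726 to 48599436, plus strand), had 75.0, 75.2 and 76.4 CPM under siRNA 1, 92.8, 85.4 and 81.6 CPM under siRNA 2, and 85.4, 85.7 and 85.6 CPM in control. It was lower under siRNA 1 than in all other libraries, and siRNA 2 spread on both sides of control. The log2 change was −0.18 (SE 0.04) under siRNA 1 and 0.02 (SE 0.04) under siRNA 2. The difference between the siRNAs was −0.20 (SE 0.04), with an adjusted p of 0.00619 in edgeR.

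**Figure D2:**
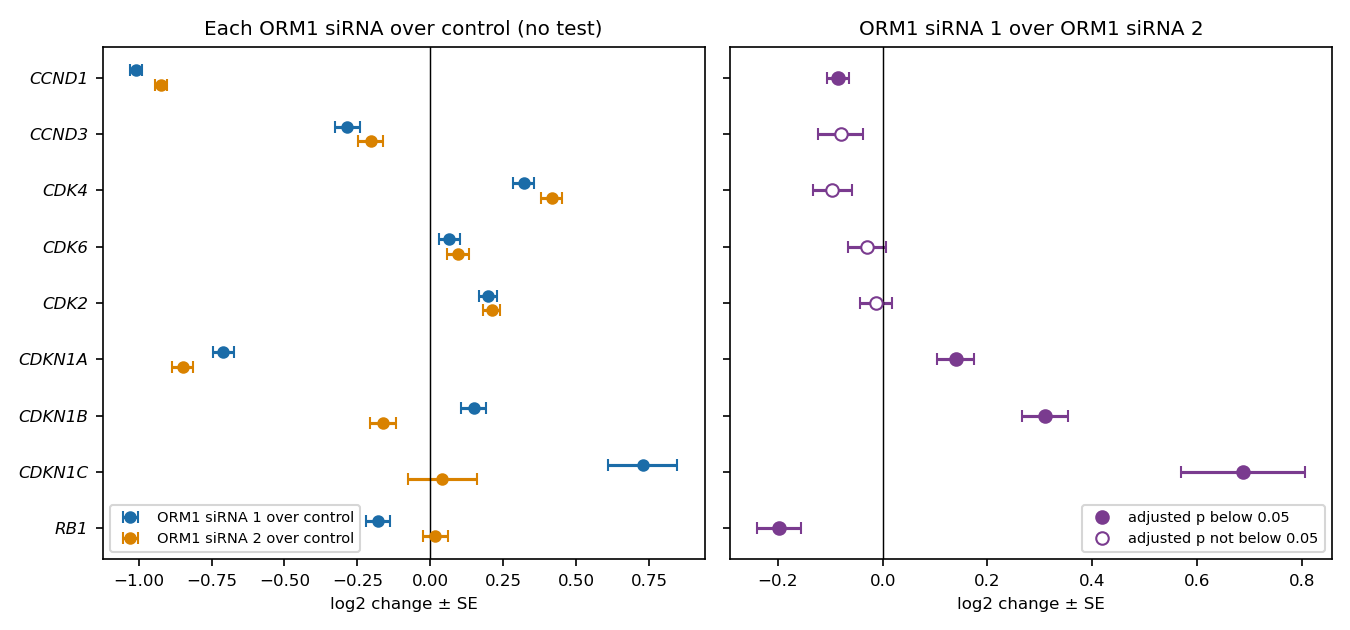
Log2 change ± SE of the 9 members tested, for each ORM1 siRNA over control (left, no test) and for siRNA 1 over siRNA 2 (right, where filled points passed an adjusted p of 0.05 in edgeR). CCND1 and CDKN1A lie far to the left of 0 under both siRNAs. In the comparison of the siRNAs CDKN1A, CDKN1B and CDKN1C lie to the right of 0.

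Counted over the 9 members tested, 8 were past an adjusted p of 0.05 under siRNA 1 against control, 4 higher and 4 lower, where 30.5% of all tested genes were. Under siRNA 2 against control 6 were, 2 higher and 4 lower, where 26.7% of all tested genes were. The choice of the members used these contrasts, so nothing is read from either count. The groups did not overlap in 9 members under siRNA 1 and 7 under siRNA 2, beside 43.7% and 39.2% of all tested genes.

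Between the siRNAs, 5 of the 9 members were called, CDKN1A, CDKN1B and CDKN1C higher and CCND1 and RB1 lower under siRNA 1, where 17.9% of all tested genes were called. Without siRNA 1 replicate 2 the count was 3, beside 2695 of 21648 tested genes. The groups did not overlap in 6 members, beside 34.3% of all tested genes. The median log2 difference of the 9 members was −0.03, against 0.0093 over all tested genes.

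The promoters of CDKN1A and CDK4, a lower and a higher member under both siRNAs, are shown to set side by side the elements they carry. They are RefSeq's on GRCh38.p14, from 250 bases before to 50 after the start, 5′ to 3′ on the gene's own strand, and positions give the first base of a match relative to the start. RefSeq's promoter table held 9 entries for 6 of the members. That of CDKN1A (chr6:36678464-36678763, plus strand) has capitals on the GC box GGGCGG, an element bound by SP1-family factors, which occurs 4 times, at −104, −94, −45 and −40, the last pair overlapping.
CDKN1A promoter: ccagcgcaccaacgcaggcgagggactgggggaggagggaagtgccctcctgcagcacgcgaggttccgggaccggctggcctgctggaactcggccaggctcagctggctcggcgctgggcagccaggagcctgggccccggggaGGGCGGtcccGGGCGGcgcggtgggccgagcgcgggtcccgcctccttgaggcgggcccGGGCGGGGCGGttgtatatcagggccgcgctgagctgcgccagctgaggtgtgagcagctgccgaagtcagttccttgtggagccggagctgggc
That of CDK4 (chr12:57752261-57752560, minus strand) has capitals on the E-box CACGTG, bound by MYC and related factors, which occurs 3 times, at −216, −196 and −101.
CDK4 promoter: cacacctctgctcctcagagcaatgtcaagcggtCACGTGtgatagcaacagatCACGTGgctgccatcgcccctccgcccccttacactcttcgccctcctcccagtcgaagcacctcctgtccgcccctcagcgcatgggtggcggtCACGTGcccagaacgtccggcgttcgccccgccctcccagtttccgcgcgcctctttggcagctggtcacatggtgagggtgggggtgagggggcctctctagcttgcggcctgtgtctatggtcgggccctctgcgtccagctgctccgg
Searched on both strands, the GC box was found in 45% and this E-box in 7.26% of the 35116 promoters of the same length. The CDK4 window also held 3 GC boxes, and the CDKN1A window held no such E-box. Other letters searched were CCAAT (found in 34.6% of promoters), TATAAA (11.5%), TTTNNCGC for E2F (6.89%), TGANTCA for AP-1 (7.71%), TGACGT (7.98%) and TTTGAA (15.2%), and none of these occurred in either window. Among the other members with entries, the windows of CCND3 held 5, 4 and 0 GC boxes and no E-box. The windows of CDK6 held 3 and 0 GC boxes and 1 and 0 E-boxes. That of CDKN1B held 1 GC box and no E-box, and that of RB1 held neither. Whether an element goes with the direction of change was not tested. These matches describe the sequence and do not show binding.

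Levels per kilobase of exon, the scale on which genes can be compared with each other, ranked CCND1 first in every group. It had 161 ± 1.6 CPM per kilobase (SD, n = 3) under siRNA 1, 171 ± 1.87 under siRNA 2 and 324 ± 3.61 in control. CDKN1A came second, with 114 ± 4.37 CPM per kilobase under siRNA 1, 104 ± 3.97 under siRNA 2 and 187 ± 4.07 in control. In control, CDK4 (33.5 CPM per kilobase), CDK2 (30.2), CDKN1B (17.1), RB1 (13.3), CDK6 (12.7), CCND3 (8.89) and CDKN1C (4.70) followed, and no neighbours in this order overlapped in range. Under siRNA 1, CDKN1C (7.79 CPM per kilobase) stood level with CCND3 (7.29), with overlapping ranges. Under siRNA 2, CDK6 (13.6) and RB1 (13.4) overlapped. Dividing by the longest transcript in place of all exon bases kept 6 of the 10 genes at their rank in control and moved CCND3 up.

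**Figure D3:**
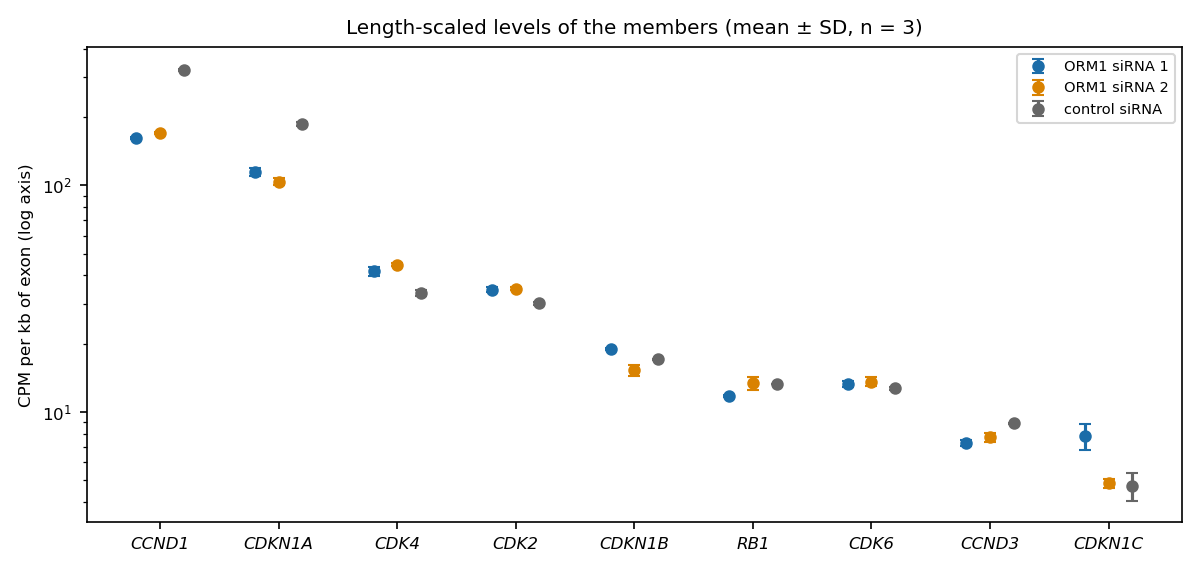
Level per kilobase of exon (CPM per kilobase, log axis) of 9 members under ORM1 siRNA 1, ORM1 siRNA 2 and control siRNA, with points for the mean and bars for the SD over 3 libraries; CCND2, at or near 0, is not drawn. CCND1 and CDKN1A lead in all 3 groups, and CDKN1C is higher under siRNA 1 than in the other groups.

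Within each family, the leading gene held most of the transcript. CCND1 made up 95.7% of the summed D-type cyclin level per kilobase under each siRNA and 97.3% in control. Divided by the longest transcript, its share was 91.1% under each siRNA and 94.4% in control. CDKN1A made up 81.1% ± 0.806 of the CIP/KIP sum under siRNA 1, 83.8% ± 0.19 under siRNA 2 and 89.6% ± 0.119 in control. The p27 gene's share was 13.4% under siRNA 1, 12.3% under siRNA 2 and 8.17% in control, and the p57 gene's share was 5.52%, 3.90% and 2.25% in the same order.

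The balance of cyclin to kinase and of cyclin to inhibitor transcript differed in size. Summed per kilobase, the D-type cyclins stood at 3.06 ± 0.0757 times CDK4 plus CDK6 under siRNA 1, 3.07 ± 0.0796 times under siRNA 2 and 7.21 ± 0.169 times in control. Against the CIP/KIP inhibitors the ratio was 1.19 ± 0.028 under siRNA 1, 1.44 ± 0.0663 under siRNA 2 and 1.59 ± 0.0515 in control. The cyclin to kinase ratio thus differed between the siRNAs by less than its SD and lay far below control, whereas the cyclin to inhibitor ratio was lowest under siRNA 1, with both families lower than in control under each siRNA. Both ratios depend on the length used. By the longest transcript, the cyclin to kinase ratio was 2.55 under each siRNA and 5.97 in control. The cyclin to inhibitor ratio was then 1.08 ± 0.0257 under siRNA 1, 1.30 ± 0.0589 under siRNA 2 and 1.395 ± 0.0453 in control. On this scale siRNA 2 and control overlapped, with 1.366 in siRNA 2 replicate 1 and 1.346 in control replicate 3.

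The replication genes driven by E2F behaved differently under the 2 siRNAs. Of 13 such genes, 8 were past the threshold under siRNA 1 against control, 6 higher and 2 lower, beside 15.7% of tested genes called higher and 14.8% called lower. Under siRNA 2 against control all 13 were higher, beside 14.2% of tested genes. Their direction was part of how the members were chosen, so these counts are a description. The summed level was 2781 ± 33.2 CPM under siRNA 1, 3542 ± 52.4 CPM under siRNA 2 and 2522 ± 50.5 CPM in control, and the 3 groups did not overlap.

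The replication genes named with values were chosen after these were seen. RRM2, which encodes the regulatory subunit of ribonucleotide reductase, averaged 526 CPM under siRNA 1, 605 CPM under siRNA 2 and 392 CPM in control. MCM7, a subunit of the replicative helicase, averaged 372 CPM under siRNA 1, 469.7 CPM under siRNA 2 and 305 CPM in control. CDT1, which loads that helicase, averaged 113 CPM under siRNA 1, 116 CPM under siRNA 2 and 81.5 CPM in control. These genes were higher under both siRNAs, with the CDT1 levels of the siRNAs close together.

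The genes called below control under siRNA 1 were MCM6 and CDC6. MCM6, another helicase subunit, averaged 122 CPM under siRNA 1, 194 CPM under siRNA 2 and 144 CPM in control. CDC6, a licensing factor, averaged 92.4 CPM under siRNA 1, 136 CPM under siRNA 2 and 110.4 CPM in control. Both therefore lay below control with siRNA 1 and above control with siRNA 2. Between the siRNAs, in the fit over all genes, 12 of the 13 replication genes were called lower under siRNA 1, beside 9.83% of all tested genes, and CDT1 was not called (adjusted p = 0.56 in edgeR). This last count was added after the values were seen.

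**Figure D4:**
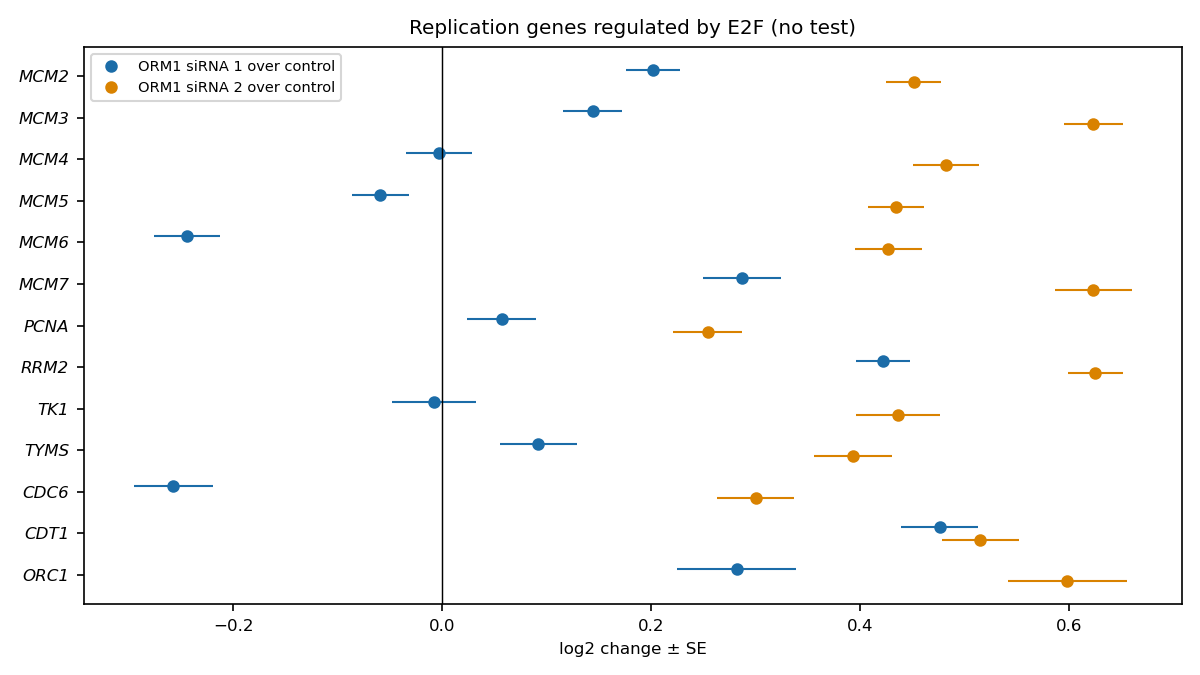
Log2 change ± SE of 13 replication genes regulated by E2F, for ORM1 siRNA 1 and ORM1 siRNA 2 over control (horizontal axis). All 13 lie to the right of 0 under siRNA 2, whereas under siRNA 1 MCM6 and CDC6 lie farthest to the left of 0.

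The wider G1 pathway was followed in 40 further genes, all of which passed the filter on low counts. Under siRNA 1 against control 16 rose and 4 fell, or 40% and 10% of the list, beside 15.7% and 14.8% of all tested genes. Under siRNA 2 against control 16 rose and 5 fell, or 40% and 12.5%, beside 14.2% and 12.6%. The median log2 change of the list was 0.06 under siRNA 1 and 0.08 under siRNA 2, against 0.0073 and −0.0035 over all tested genes. Both comparisons share the control libraries. The list was written with earlier results of these data known, so its counts against control are a description. With a filter of at least 1 CPM in 3 libraries, 16 of the list rose under each siRNA. Beside this, 3325 of 15069 tested genes were called higher under siRNA 1 and 2990 under siRNA 2. Between the siRNAs 8 were higher and 10 lower under siRNA 1, or 20% and 25%, beside 8.09% and 9.83% of all tested genes.

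**Figure D5:**
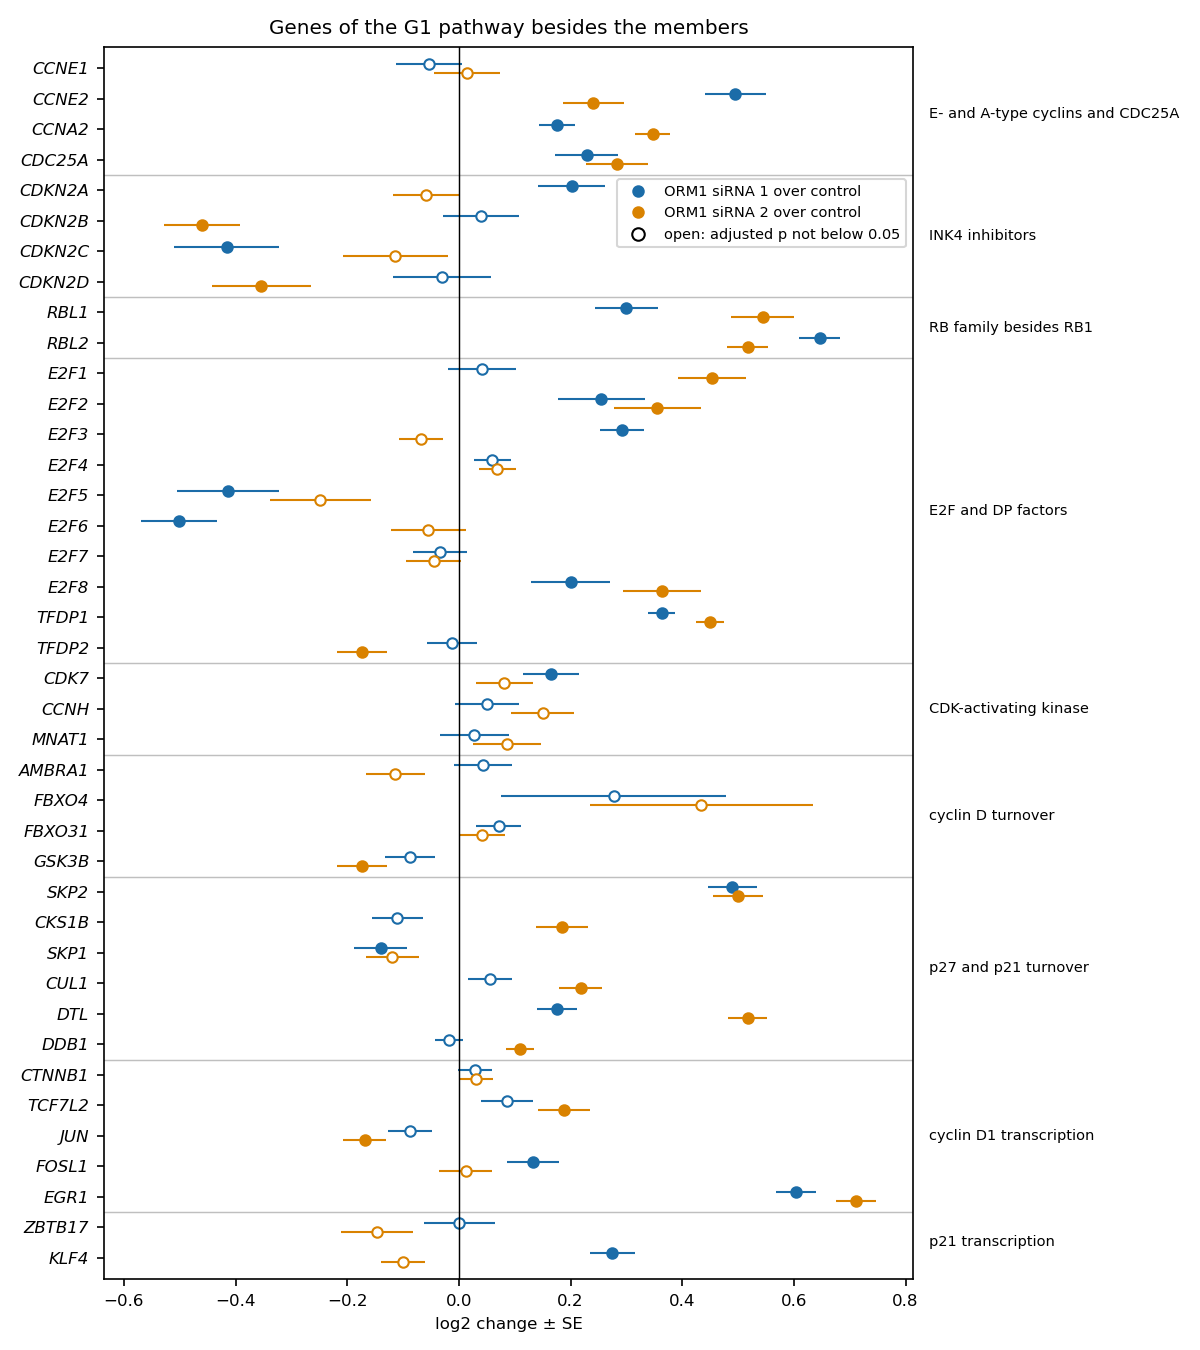
Log2 change ± SE of 40 genes of the G1 pathway for ORM1 siRNA 1 and ORM1 siRNA 2 over control, grouped by role. Filled points passed an adjusted p of 0.05 in edgeR; RBL1, RBL2, TFDP1, SKP2 and EGR1 rose under both siRNAs, and INK4 genes differed between the siRNAs.

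Downstream of the D-type cyclins, 3 of the 4 genes for E- and A-type cyclins and CDC25A rose under each siRNA, beside 15.7% of all tested genes under siRNA 1 and 14.2% under siRNA 2. CCNE2, a cyclin that activates CDK2, averaged 31.8 ± 0.302 CPM under siRNA 1, 26.7 ± 0.947 CPM under siRNA 2 and 22.6 ± 1.07 CPM in control. CCNA2, the S-phase partner of CDK2, averaged 137 ± 0.589 CPM under siRNA 1, 154 ± 5.42 CPM under siRNA 2 and 121 ± 2.27 CPM in control. CCNE1, the other cyclin E gene, did not pass the test, at 39.2 CPM under siRNA 1, 41.1 CPM under siRNA 2 and 40.7 CPM in control.

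The INK4 proteins inhibit CDK4 and CDK6 alone. Under siRNA 1 CDKN2A rose and CDKN2C fell against control, where the call of CDKN2A was lost without siRNA 1 replicate 2 or control replicate 2 or 3 (adjusted p 0.0555 to 0.106 in edgeR), and under siRNA 2 CDKN2B and CDKN2D fell. That was 2 of 4 called under each siRNA, beside 30.5% of all tested genes under siRNA 1 and 26.7% under siRNA 2. All 4 INK4 genes averaged below control under siRNA 2, with a median log2 change of −0.23, against 2 above and 2 below under siRNA 1. Between the siRNAs all 4 were called, 3 higher and CDKN2C lower under siRNA 1, beside 17.9% of all tested genes. CDKN2B, which encodes p15, averaged 17.1 ± 0.13 CPM under siRNA 1, 12.1 ± 0.167 CPM under siRNA 2 and 16.7 ± 0.48 CPM in control, a log2 difference between the siRNAs of 0.50 with an adjusted p of 3.44e-04 in edgeR. The calls between the siRNAs of CDKN2C (adjusted p = 0.0442 in edgeR) and CDKN2D (adjusted p = 0.0241) were lost under 10 and 4 of the alternatives, among them leaving out any siRNA library for CDKN2C, with adjusted p up to 0.147 and 0.113. For CDKN2D the libraries were siRNA 1 replicates 2 and 3 and siRNA 2 replicates 2 and 3. CDKN2A gives both the p16 and the ARF transcript, which the gene counts do not separate.

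The 2 relatives of RB1 rose under both siRNAs, beside 15.7% of all tested genes under siRNA 1 and 14.2% under siRNA 2. RBL1, which encodes p107, averaged 29.7 ± 1.06 CPM under siRNA 1, 35.2 ± 0.956 CPM under siRNA 2 and 24.2 ± 1.29 CPM in control. RBL2, which encodes p130, averaged 67.1 ± 1.06 CPM under siRNA 1, 61.4 ± 1.07 CPM under siRNA 2 and 42.9 ± 1.34 CPM in control. The log2 change of RBL1 was 0.30 under siRNA 1 and 0.54 under siRNA 2, and that of RBL2 was 0.65 and 0.52. For RB1 itself, as given above, the change was −0.18 and 0.02.

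Among the 10 genes for E2F and DP factors, 5 were called between the siRNAs, beside 17.9% of all tested genes: E2F1, E2F3, E2F6, TFDP1 and TFDP2. The calls of TFDP1 (log2 −0.09, adjusted p = 0.0344 in edgeR) and TFDP2 (log2 0.16, adjusted p = 0.0282) were lost under 6 and 5 alternatives, with adjusted p up to 0.126 and 0.113. For TFDP1 these were the omission of any siRNA library, and for TFDP2 they included the omission of siRNA 1 replicate 1 or 3 or siRNA 2 replicate 1 or 2. E2F1, an activator of replication genes, averaged 28.8 ± 0.954 CPM under siRNA 1, 38.3 ± 2.87 CPM under siRNA 2 and 28.0 ± 0.977 CPM in control. It rose under siRNA 2 (log2 0.45) and not detectably under siRNA 1 (0.04), and the difference between the siRNAs was −0.41, with an adjusted p of 5.76e-04 in edgeR. E2F3, another activator, averaged 80.4 ± 1.56 CPM under siRNA 1, 62.6 ± 2.63 CPM under siRNA 2 and 65.7 ± 1.88 CPM in control. It rose under siRNA 1 (log2 0.29) and did not pass under siRNA 2 (−0.07), and edgeR gave the difference an adjusted p of 6.24e-05. E2F6, a repressor, fell under siRNA 1 to 23.9 ± 1.3 CPM, against 32.7 ± 2.86 CPM under siRNA 2 and 33.9 ± 0.477 CPM in control, and the siRNAs differed at an adjusted p of 6.88e-04 in edgeR. TFDP1, the DNA-binding partner of these factors, rose under both siRNAs and averaged 229 ± 3.07 CPM under siRNA 1, 243 ± 1.09 CPM under siRNA 2 and 178 ± 2.29 CPM in control.

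Among 6 genes for the turnover of p27 and p21, SKP2 and DTL rose under both siRNAs. Under siRNA 1 these 2 were the only ones to rise, beside 15.7% of all tested genes. Under siRNA 2 CKS1B (log2 0.19), CUL1 (log2 0.22) and DDB1 (log2 0.11) rose as well, which made 5 of 6, beside 14.2% of all tested genes. Between the siRNAs CKS1B, CUL1, DTL and DDB1 were called lower under siRNA 1, beside 9.83% of all tested genes, and the call of CUL1 was lost without siRNA 1 replicate 2 (adjusted p = 0.0582 in edgeR). SKP2, the F-box protein that marks p27 for destruction, averaged 67.4 ± 0.76 CPM under siRNA 1, 67.9 ± 4.05 CPM under siRNA 2 and 48.0 ± 0.893 CPM in control. DTL, which guides the destruction of p21 and CDT1 on replicating DNA, averaged 61.8 ± 0.661 CPM under siRNA 1, 78.3 ± 2.07 CPM under siRNA 2 and 54.7 ± 1.51 CPM in control. SKP1, the adaptor of the SKP2 ligase, fell under siRNA 1, at an adjusted p of 0.0463 in edgeR that 7 alternatives did not keep, leaving out siRNA 1 replicate 1 or 3, siRNA 2 replicate 3 or any control library among them. Of the 4 genes for the turnover of cyclin D, GSK3B fell under siRNA 2, a call lost without control replicate 2 (adjusted p = 0.0648 in edgeR), and no other passed in either comparison with control. Of the 3 subunits of the CDK-activating kinase, CDK7 rose under siRNA 1, a call lost under 6 alternatives, leaving out any siRNA 1 library or control replicate 1 or 2 among them, and the others did not pass. Of all tested genes, 30.5% were called under siRNA 1 and 26.7% under siRNA 2.

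Among 5 genes that act on CCND1 transcription, EGR1 and FOSL1 rose under siRNA 1, and EGR1 and TCF7L2 rose and JUN fell under siRNA 2. That was 2 of 5 and 3 of 5, beside 30.5% and 26.7% of all tested genes called. The FOSL1 libraries of siRNA 1 and control overlapped. The call of FOSL1 (adjusted p = 0.0491 in edgeR) was lost under 9 alternatives with adjusted p up to 0.199, among them leaving out siRNA 1 replicate 2 or 3, siRNA 2 replicate 1 or 2, or control replicate 2 or 3. EGR1, a growth factor response gene, averaged 162 ± 2.88 CPM under siRNA 1, 175 ± 4.94 CPM under siRNA 2 and 107 ± 4.57 CPM in control, and rose under both. CTNNB1, which encodes beta-catenin, passed the test under neither siRNA, at 368 ± 6.32 CPM under siRNA 1, 369 ± 9.12 CPM under siRNA 2 and 361 ± 11.2 CPM in control. KLF4, which acts on CDKN1A, rose under siRNA 1 (log2 0.28) and did not pass under siRNA 2 (−0.10), and the siRNAs differed at an adjusted p of 5.37e-05 in edgeR.

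Across the 9 libraries, the genes whose profile lay nearest to that of CCND1, among 11547 genes with a mean of at least 5 CPM, were NT5E, APOBEC3B, CHST11, MCAM and GRAMD1C. Likeness was the root mean square difference of log2(CPM + 0.5) relative to the control mean. NT5E, the ecto-5′-nucleotidase, was the nearest, at 0.0386, and averaged 169.8 CPM under siRNA 1, 183 CPM under siRNA 2 and 339.6 CPM in control. Nearest to CDKN1A were TIMP2, a metalloproteinase inhibitor (0.0595), FAM43A, DUSP5, NFKBIA and STX1A (0.0831). TIMP2 averaged 185 CPM under siRNA 1, 169 CPM under siRNA 2 and 315 CPM in control. With a pseudocount of 5 in place of 0.5, 2 of the 5 genes near CCND1 and 3 of the 5 near CDKN1A stayed on the list.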

How the data were processed

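RNA-seq gene counts of 9 HCT116 libraries in 3 groups, taken from the labels, were analysed. The values are raw read counts per Ensembl identifier as deposited, not normalised by the authors per the labels. The genome build was hg19, per the submitters' processing notes. The aligner, counter, annotation and strand setting were not given in the sources used. GENCODE 29 (GRCh38) gave gene positions, exon lengths, overlaps and coding sequences, and RefSeq (GRCh38.p14) gave promoters.

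The filter filterByExpr of edgeR 4.0.16 (R 4.3.3) kept 20932 of 61806 identifiers, and TMM factors were 0.985 to 1.014. Groups shared 1 quasi-likelihood fit over all libraries. Calls required a Benjamini-Hochberg adjusted p under 0.05 over all tested genes. The SE is the log2 change over the square root of F, and ± is the SD over 3 libraries. The test was checked on simulated counts of siRNA 1 against control. It recovered 44% of changes of 1.25-fold, 52% of 1.5-fold, 84% of 2-fold and 94% of 3-fold, with 10 false calls among 147. Only 50 genes per fold size were changed among 20332, drawn from all genes above 1 CPM. In the data 6389 of 20932 were called, so the adjusted p was harder to pass in the simulation. These shares therefore do not give the power of the real fit or for the members. Small changes can still be missed. Depth was 60698684 to 71431723 counts per library, so counting error is small for all members except CCND2.

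The members and all lists were chosen with earlier results of these data known. Some genes of the lists and a coding sequence are not reported here. The text names all 10 members, genes of the pathway list, ORM1 and ORM2, and the 5 genes nearest to CCND1 and to CDKN1A. Alternatives were DESeq2 1.42.0, limma-voom (limma 3.58.1), other scaling and count filters, only the groups compared, the replicate number as a block, and each library left out in turn. Python 3.11.15, pandas 2.3.3, numpy 2.4.6, Biopython 1.88 and matplotlib 3.10.9 served for tables, alignments and figures.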

Additional observations from a re-analysis of the deposited data

Results flagged for a closer look

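Of the members, replication genes and pathway list, 3 genes passed edgeR's test under each siRNA on opposite sides of control. The difference between siRNA 1 and siRNA 2 was past the threshold as well. Genes past it against control under 1 siRNA alone, such as KLF4, CKS1B and MCM5, are not among these 3 genes. How many of all tested genes do the same was not counted, so 3 cannot be called many or few. The comparisons with control were known when the members and the replication genes were chosen, so the calls against control are a description. CDKN1B, the p27 gene, was higher than control in 3 of 3 siRNA 1 libraries and lower in 3 of 3 siRNA 2 libraries, with a log2 difference between the siRNAs of 0.31. Its calls against control were lost without single libraries, with adjusted p up to 0.0814 under siRNA 1 and 0.063 under siRNA 2 in edgeR. MCM6 and CDC6, both replication genes, were lower than control under siRNA 1 and higher under siRNA 2, with log2 differences between the siRNAs of −0.67 and −0.56.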

How the results depend on the processing

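Against control, the log2 changes of members kept their sign under all alternatives except those of CDKN1C (−0.07 to 0.13) and RB1 (−0.03 to 0.06) under siRNA 2. With 1 library left out, 7 to 8 members were called under siRNA 1 and 5 to 7 under siRNA 2, beside 24.6% to 29.3% and 21.7% to 24.9% of all tested genes. Between the siRNAs 3 to 5 members were called when 1 library was left out, beside 12.4% to 17.3% of all tested genes, the lowest without siRNA 1 replicate 2. Under every other alternative 5 were called, beside from 3031 of 35586 to 3976 of 15069 tested genes. The calls of CDKN1B, CDKN1C and RB1 between the siRNAs were kept throughout, and those of CCND1 and CDKN1A were lost without single libraries named above. Of the pathway calls, 14 of 20 under siRNA 1, 19 of 21 under siRNA 2 and 12 of 18 between the siRNAs were kept under every alternative. The counts of replication genes were the same under every alternative.

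Under the alternatives, uncalled changes also crossed 0 for MCM4 (−0.02 to 0.02) and TK1 (−0.04 to 0.02) under siRNA 1, CCNE1 under siRNA 2 (−0.02 to 0.05), CDK2 between the siRNAs (−0.03 to 0), CDKN2D under siRNA 1 (−0.10 to 0.03) and E2F6 under siRNA 2 (−0.10 to 0.02). Ranking by the longest transcript kept 6 of 10 genes at their rank in control. Replicate numbers did not pair the libraries, as same-numbered libraries of different groups correlated at −0.104 to 0.064 in their deviations from the group means. Differently numbered libraries correlated at −0.133 to 0.162. The highest were siRNA 2 replicate 1 with control replicate 3 (0.162) and siRNA 2 replicate 2 with control replicate 1 (0.161). Whether libraries were handled together under other numbers was not tested. With the replicate number as a block, 8 members were called under siRNA 1, 7 under siRNA 2 and 5 between the siRNAs. In that fit 6452, 5589 and 3794 of all 20932 tested genes were called, in the same order. The strand setting limits CDK4, and depth limits CCND2.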
